A study of Mus musculus with 28 samples.

Results

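The regions described here carried a peak of H3K27 acetylation (H3K27ac) in 3 of 3 libraries taken after 24 h of TGF-β with the MEK inhibitor UO126, and in none of the 9 libraries of the same cells without the inhibitor. Peaks of all 15 libraries that shared at least 1 bp were merged into 89050 regions, and 477 of them (0.536%) met this rule. The cells were NMuMG, a mouse mammary epithelial line used in the study as the subclone NMuMG/E9. They were untreated (0h) or had received 2 ng/ml TGF-β for 4 h or 24 h. In the ERKi 4h and ERKi 24h groups, 25 µM UO126 was given 30 min before TGF-β. By the methods of the study the 0h, 4h and 24h libraries are the arm with the solvent DMSO, which the labels of the single libraries do not name. Each of the 5 groups had 3 libraries. Nothing in the labels says whether these came from separate cultures, so the spread between them may be technical.

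H3K27ac is laid down on histone H3 by acetyltransferases such as p300 and CBP and marks active promoters and enhancers. MEK phosphorylates and activates ERK, the last kinase of the cascade below growth factor receptors and RAS, and UO126 blocks MEK. TGF-β drives NMuMG cells through an epithelial to mesenchymal transition, in which Smad proteins and ERK signalling both take part.

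The peak values chose the members, so their presence at ERKi 24h and their absence from 0h, 4h and 24h are given as a description. The calls in the 3 ERKi 4h libraries, the place of the regions in the genome, their sequence and the peaks beside them were not used by the rule. The lists held between 50445 and 69180 peaks, and ERKi 24h replicate 2 had the shortest list of its group, with 56042 peaks against 64660 and 69180. The peak names of ERKi 4h replicate 1 carry a library number out of order with the others, so results at ERKi 4h are also given without it. Peaks at the start sites of Cdh1, Krt8 and Krt18, genes of epithelial cells, were called in all 15 libraries, and none was called at those of Epcam, Cldn7, Krt5 or Krt14, nor at those of the leukocyte gene Ptprc or the endothelial genes Pecam1 and Cdh5.

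The members with the strongest peaks at ERKi 24h are shown first by their sequence. Each is the 201 bases around the summit on the plus strand of NCBIM37 (mm9), printed because these 6 regions lead the ranking, hold both Cyp1 regions described below, or show the motifs counted at the end. The window near Cacna2d1 is chr5:15363199-15363399, that near Cyp1b1 is chr17:80138304-80138504, that near Gm8214 is chr1:185450646-185450846, that at Med27 is chr2:29246537-29246737, that in Dip2b is chr15:99887122-99887322, and that near Cyp1a2 is chr9:57517285-57517485. None of the windows overlaps an annotated exon. Capitals mark CAGACA, the short element bound by Smad proteins, and TGANTCA, on either strand. TGANTCA is a loose pattern for the site of AP-1 (Jun and Fos). Its N is any base, so it also takes in sequences other than the usual site.
Cacna2d1: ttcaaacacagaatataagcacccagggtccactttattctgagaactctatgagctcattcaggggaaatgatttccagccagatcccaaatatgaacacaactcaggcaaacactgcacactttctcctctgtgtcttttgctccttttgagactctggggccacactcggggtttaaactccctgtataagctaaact
Cyp1b1: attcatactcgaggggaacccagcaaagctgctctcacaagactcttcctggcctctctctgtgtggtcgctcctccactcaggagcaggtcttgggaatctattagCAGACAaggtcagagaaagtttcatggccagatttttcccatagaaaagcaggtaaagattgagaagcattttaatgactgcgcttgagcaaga
Gm8214: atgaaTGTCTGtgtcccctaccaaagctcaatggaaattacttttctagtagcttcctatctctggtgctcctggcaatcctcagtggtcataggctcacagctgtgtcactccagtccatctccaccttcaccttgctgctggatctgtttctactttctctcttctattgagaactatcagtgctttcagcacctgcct
Med27: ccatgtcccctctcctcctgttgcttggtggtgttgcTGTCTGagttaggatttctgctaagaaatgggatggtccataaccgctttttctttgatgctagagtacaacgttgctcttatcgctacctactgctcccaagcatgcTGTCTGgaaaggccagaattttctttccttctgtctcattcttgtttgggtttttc
Dip2b: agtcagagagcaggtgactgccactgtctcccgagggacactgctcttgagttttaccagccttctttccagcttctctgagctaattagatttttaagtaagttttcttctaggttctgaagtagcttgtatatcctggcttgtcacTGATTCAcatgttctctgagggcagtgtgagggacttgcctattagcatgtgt
Cyp1a2: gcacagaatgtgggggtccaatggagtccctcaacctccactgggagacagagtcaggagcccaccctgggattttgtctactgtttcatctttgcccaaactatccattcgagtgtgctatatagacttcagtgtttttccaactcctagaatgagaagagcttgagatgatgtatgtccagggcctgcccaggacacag
The windows near Cyp1b1 and Gm8214 hold CAGACA once each and that at Med27 holds it 2 times, all but the first as its reverse complement. The window in Dip2b holds TGANTCA once, as TGATTCA, and those near Cacna2d1 and Cyp1a2 hold neither pattern.

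The members were weak peaks. Their median width was 554 bp, from 202 to 1829 bp, against 591.5 bp over all regions and 519 bp over those called only at 24h. The -log10 p of a peak measures how far the fragments at its summit stand above the local background. Its median over the members was 9.69, 6.70 and 12.1 in ERKi 24h replicates 1, 2 and 3. Ranked among all peaks of the same library, the median member lay at percentile 29.7 in replicate 1, 15.9 in replicate 2 and 37.1 in replicate 3 (mean 27.6 ± 10.7, SD, n = 3). Only 51, 14 and 106 of the 477 members lay above the middle of their library's ranking. Ranked by fold enrichment over the local background the mean was 39.5 ± 6.07, and by the number of fragments piled up at the summit, solved from the fold and the p, it was 23.0 ± 9.49. The median member had a fold of 3.99, 3.65 and 4.37 and a pileup of 24, 17 and 28 fragments in the 3 libraries, where the median peak of the library had 50, 40 and 50.

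**Figure D1:**
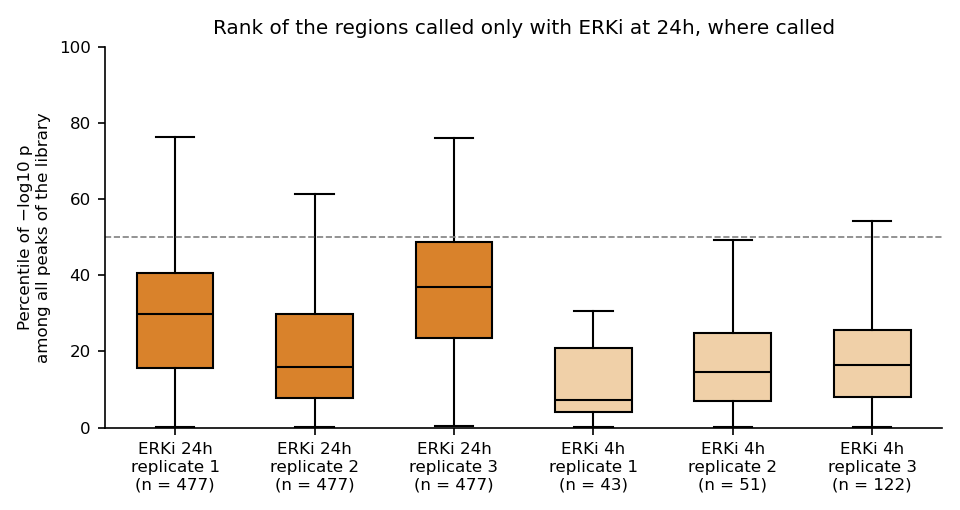
Percentile of the -log10 p of the members among all peaks of a library, in the 3 ERKi 24h libraries that chose them and in the 3 ERKi 4h libraries where they were called. The box spans the quartiles with the median as a line, the whiskers reach the lowest and highest member, the dashed line is the middle of the library's ranking, and the median lies below it in all 6 libraries, at 15.9 to 37.1 in ERKi 24h.

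For each member the lowest of its 3 values of -log10 q at ERKi 24h was taken, and the median of these was 4.26. This lowest value was under 3 in 69 of 477 members, at least 5 in 172 and at least 10 in 15. Just outside the rule, 1985 regions were called in 2 of 3 ERKi 24h libraries and none of the 9, and 1688 of these lacked only the peak in replicate 2. With replicate 2 left out, the rule found 2165 regions. Another 428 regions were called in 3 of 3 ERKi 24h libraries and in 1 of the 9, most often in 24h replicate 3 (130 regions) or 4h replicate 3 (91 regions), which had the longest lists of the 9. The median -log10 p, as a mean over the ERKi 24h libraries with a peak, was 9.64 inside the rule, 7.61 in the regions with 2 of 3 and 10.6 in those with 1 of the 9.

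The region with the highest mean rank lay at chr5:15362788-15363563, 77210 bp upstream of the start site of Cacna2d1, which encodes an auxiliary subunit of voltage-gated calcium channels. Its -log10 p was 41.2, 15.4 and 44.1 in ERKi 24h replicates 1, 2 and 3, and at ERKi 4h it was called in replicate 3 alone, at 6.03. The second was a region of 1025 bp at chr17:80137935-80138959, 24003 bp upstream of Cyp1b1, with 44.7, 17.1 and 26.8 at ERKi 24h. Cyp1b1, Cyp1a1 and Cyp1a2 encode cytochrome P450 enzymes that oxidise polycyclic aromatic compounds and steroids, and all are textbook target genes of the aryl hydrocarbon receptor. The Cyp1b1 region was called in all 3 ERKi 4h libraries, with lower values of 7.95, 4.89 and 6.87. The ninth in rank, at chr9:57516729-57517540, lay 14077 bp beyond the start site of Cyp1a2 and 28035 bp upstream of that of Cyp1a1. Its -log10 p was 25.4, 13.2 and 25.4 at ERKi 24h and 7.95, 12.7 and 8.41 at ERKi 4h. At ERKi 4h both regions were present in every library, and in replicate 2 the Cyp1a2 region came close to its ERKi 24h value.

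Of the other regions among the 12 strongest, 1 lay in a promoter, that of Med27, a subunit of the Mediator complex that links transcription factors to RNA polymerase. This region of 1332 bp, 227 bp upstream of the start site, had a -log10 p of 23.6, 14.9 and 28.6 at ERKi 24h and was called in 1 ERKi 4h library. Regions in introns lay in Dip2b (22.6, 14.7 and 30.2), in Mkl2, which encodes a coactivator of serum response factor (34.2, 9.04 and 36.0), and in Zfyve1, whose protein sits at sites of autophagosome formation (17.1, 16.9 and 27.1). None of these 3 was called in an ERKi 4h library. The region nearest Gm8214 had 46.7, 11.5 and 45.1 and that nearest Slc35f5, a solute carrier, had 29.5, 10.6 and 24.3, and neither was called at ERKi 4h. The region nearest C330011M18Rik, in an intron of Rfx1, had 21.96, 11.8 and 38.8 at ERKi 24h and no peak at ERKi 4h. The region nearest 2900097C17Rik had 29.7, 13.3 and 43.5 and was called at ERKi 4h in replicate 3. The region nearest Barhl1, a homeobox gene, had 20.8, 11.7 and 35.4 and was called at ERKi 4h in replicates 2 and 3. Replicate 2 gave the lowest value of the 3 in all 12 regions. By fold enrichment 7 of these 12 stayed among the first 12, and by pileup none did.

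**Figure D2:**
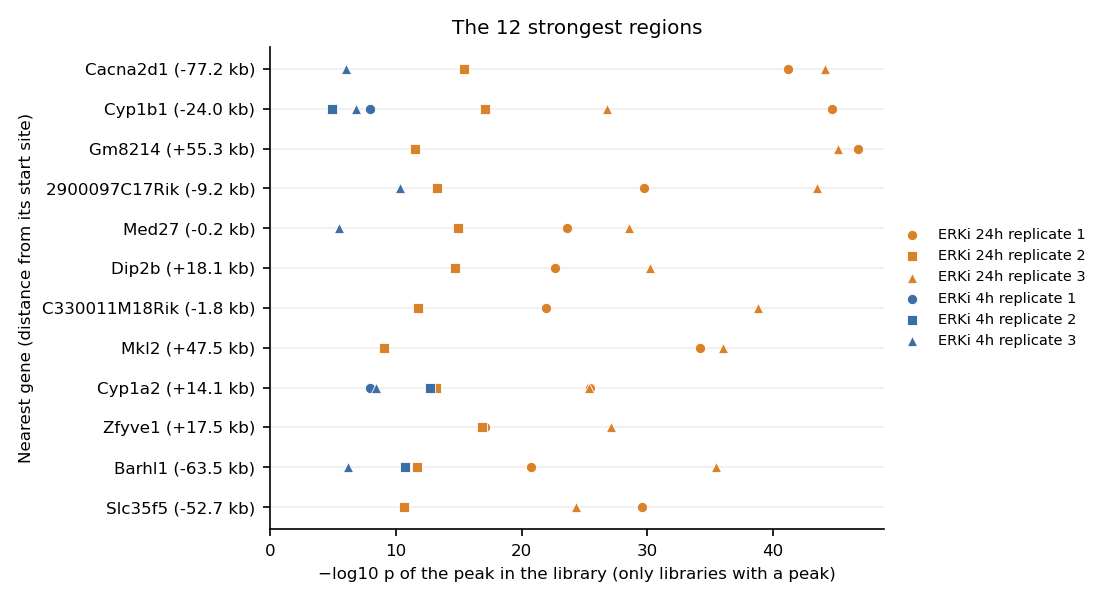
The -log10 p of the 12 strongest members in the 3 ERKi 24h and the 3 ERKi 4h libraries, on a linear axis, 1 row for each region with its nearest gene and the distance of the summit from its start site. A library without a peak has no point, the squares of ERKi 24h replicate 2 lie lowest of the ERKi 24h points in every row, and the rows of Cyp1b1 and Cyp1a2 hold 3 ERKi 4h points each.

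The 3 ERKi 4h libraries tell how much of the pattern was present at the earlier time. ERKi 4h replicate 1 called 43 members (9.01%), replicate 2 called 51 (10.7%) and replicate 3 called 122 (25.6%), a mean of 15.1% ± 9.12 (SD, n = 3). Over all regions the same libraries called 48.9%, 48.5% and 55.3%. The share of members was below that of all regions in each library, a comparison with no test. All regions include the 26934 called in all 15 libraries, which the rule keeps out of the members. A lower share of members therefore follows in part from the rule, here and in the counts below. Of the 477 members, 317 were called in no ERKi 4h library, 110 in 1, 44 in 2 and 6 in all 3. At least 1 library called 160 members (33.5%) against 62.5% of all regions, and all 3 called 1.26% against 40.9%. Replicate 3, which called the most members, also had the longest list of the group, with 64815 peaks against 56211 and 57660. With the same number of peaks, 20000, taken from each list and the rule applied again, the shares were 18.4%, 10.6% and 26.95%, and replicate 3 again called the most. Without replicate 1 the mean share of the 477 was 18.1%, and without replicate 3 it was 9.85%. With ERKi 24h replicate 2 left out of the rule, the mean share over the 2165 regions then found was 7.99%. Where a member was called at ERKi 4h its median percentile was 7.28, 14.7 and 16.5 in the 3 libraries.

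The same share was taken over the regions that were called in all 3 libraries of another group and in none of the other 9 that the rule uses. Of the 458 regions called only at 24h, ERKi 4h replicates 1, 2 and 3 called 1.09%, 1.53% and 0.873%. The share of members was higher in 3 of 3 libraries, by 13.9 ± 9.35 percentage points (8.54 without replicate 3). These 458 regions ranked much like the members in their own libraries, at a median percentile of 28.7 against 27.3. Of the 184 regions called only at 0h, 24.5% ± 9.89 were called at ERKi 4h, and the share of members was lower in 3 of 3 libraries, by 9.36 ± 8.53 points. Without replicate 2 this difference was -4.44 points, and it did not hold under other thresholds, at 0.944 points with peaks of -log10 q of at least 10, -1.10 with the 20000 highest peaks of each list and -1.44 with a fold of at least 5. Of the 14 regions called only at 4h, 54.8% ± 4.12 were called, 39.7 ± 8.29 points above the members, and this share rests on few regions. Each difference was tested with an exact two-sided sign-flip test over the 3 ERKi 4h libraries, which cannot go below p = 0.25, and all 3 gave p = 0.25 (0.25 after Benjamini-Hochberg adjustment over the 3). No difference could therefore pass a threshold of 0.05 in this design.

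**Figure D3:**
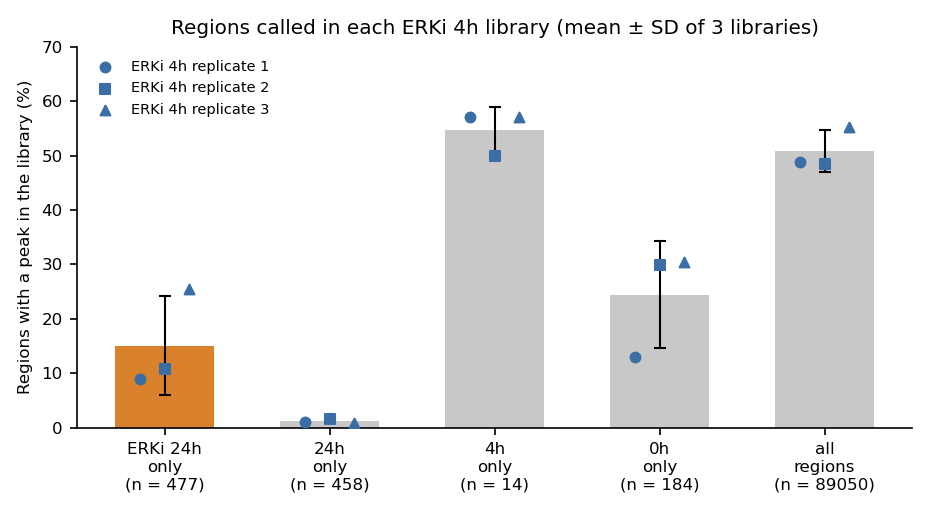
Share of regions with a peak in each ERKi 4h library, for the regions called only with ERKi at 24h, for the regions called in all 3 libraries of 24h, 4h or 0h alone, and for all regions. Bars are means over 3 libraries, error bars are SD and points are libraries. The members lie at 9.01% to 25.6%, above the 24h only regions in every library. They lie below all regions, which include those called in all 15 libraries.

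The 6 members called in all 3 ERKi 4h libraries lay nearest Cyp1b1, Cyp1a2, Zzz3, Thsd4, Chga and Rpl30-ps6. The median percentile of these 6 at ERKi 24h was 37.6, and it was 26.3 in the 317 members with no call at ERKi 4h. The region of Zzz3, a subunit of the ATAC histone acetyltransferase complex, lay in a UTR of the gene and had a -log10 p of 18.5, 7.08 and 19.1 at ERKi 24h and 9.57, 8.60 and 8.61 at ERKi 4h. In replicate 2 the value at ERKi 4h was the higher one. The region nearest Thsd4, in an intron of the gene, had 14.0, 5.99 and 17.8 at ERKi 24h and 7.17, 5.47 and 7.79 at ERKi 4h. The region nearest Chga, which encodes the secretory granule protein chromogranin A, lay in an exon of Itpk1 and had 11.2, 7.45 and 9.60 at ERKi 24h against 9.45, 10.3 and 9.99 at ERKi 4h. For this region the values of the 2 times overlapped, as they did for the region nearest the pseudogene Rpl30-ps6 (6.37, 9.02 and 5.38 against 5.63, 8.15 and 5.83).

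Most members lay away from start sites. The summit was in an intron for 246 members (51.6%) and intergenic for 179 (37.5%), against 44.1% and 38.1% of all regions. Promoters were the 1000 bp before a start site of any annotated gene and the first 100 bp after it. They held 26 members (5.45%), against 11.8% of all regions and 20.1% of the 37906 regions called in all 3 ERKi 24h libraries. Exons outside UTRs held 16 members (3.35%) and UTRs 10 (2.10%). The regions called only at 24h differed from the members in that 54.1% were intergenic, 41.3% intronic and 2.18% in promoters. The median distance from a member to the nearest start site of a protein-coding gene was 17472 bp, against 15169.5 bp over all regions and 28800 bp for the regions called only at 24h. Within 10 kb of a start site lay 37.1% of the members, 41.6% of all regions and 24.7% of the regions called only at 24h. Of the regions called in all 3 ERKi 24h libraries, 53.2% did. Regions are not replicates, so these shares are descriptions with no test.

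**Figure D4:**
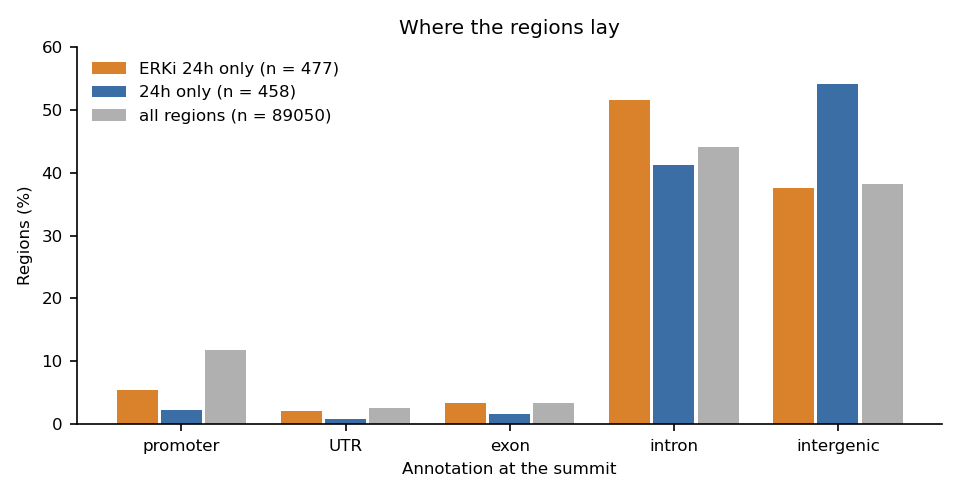
Share of the 477 members, of the 458 regions called only at 24h and of all 89050 regions by what the annotation holds at the summit. Bars start at 0. The members stand at 51.6% in introns and 5.45% in promoters, and the 24h only regions at 54.1% between genes.

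The nearest of the 26934 regions called in all 15 libraries was a median of 14488 bp away, against 24675 bp for the regions called only at 24h. It lay within 10 kb of 196 members (41.1%) and of 29.7% of the 24h only regions. It lay farther than 50 kb from 63 members (13.2%) and from 32.5% of the 24h only regions. These distances were not taken over all regions. A region of any kind lay within 1 kb of 279 members (58.5%) and of 299 of the 24h only regions (65.3%), so by this measure the members stood less close to other regions. The 189 different regions called in all 15 libraries that lay nearest to a member and within 10 kb had a median percentile by -log10 p of 77.6, 71.0 and 79.4 in ERKi 24h replicates 1, 2 and 3 and of 68.7, 74.7 and 74.7 at 24h. The groups overlapped, and the difference of 3.302 points did not pass an exact two-sided permutation test over libraries (p = 0.4, smallest possible p = 0.1). By fold enrichment the difference was -3.01 points (exact permutation p = 0.1) and by pileup 4.73 points (exact permutation p = 0.3), so the direction rests on the measure.

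The members were spread over chromosomes 1 to 19 and X, with 9.43% on chromosome 2, which held 7.49% of all regions, and 1.68% on X, which held 2.10%. As a share of the regions of a chromosome, members made up from 0.330% on chromosome 10 to 0.789% on chromosome 16. By the nearest start site they fell to 427 genes, of which 386 had 1 member, 34 had 2 and 7 had 3 or more. Members less than 50 kb apart formed 35 groups that held 79 members (16.6%), and the other 398 stood alone. Of the regions called only at 24h, 84 (18.3%) lay within 50 kb of another of their set. Such grouping was therefore no trait of the members alone. The largest group held 8 members in 138365 bp of chromosome 17, at chr17:80101693-80240057, of which 5 lay nearest Cyp1b1 and 3 nearest Atl2, which encodes an atlastin GTPase of the endoplasmic reticulum. No other group held more than 3.

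Around Cyp1b1 (ENSMUSG00000024087, chr17:80106234-80114401, minus strand) the 5 members lay 12000 bp downstream and 15834, 24003, 40247 and 71741 bp upstream of the start site. The region at -24 kb was by far the strongest, with the values given above. The region 40247 bp upstream had a -log10 p of 17.2, 6.62 and 10.8 at ERKi 24h, the region 71741 bp upstream had 6.82, 8.21 and 8.41, and the other two stayed between 5.02 and 8.51. Only the region at -24 kb was called in more than 1 ERKi 4h library. In the 90000 bp on either side of the gene 18 regions were called in any library, and 11 of them were called in ERKi libraries alone, as were 13.5% of all regions. The 5 members are among these 11 by the rule.

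2 regions of this stretch were called in all 15 libraries and so were not chosen by the rule, though they were looked at after the members were known. The promoter region of Cyp1b1, 2716 bp wide, ranked at percentiles 67.2, 62.2 and 65.1 by -log10 p at 0h, 58.0, 68.0 and 66.8 at 4h and 59.5, 69.3 and 69.5 at 24h. It ranked at 81.5, 80.8 and 86.9 at ERKi 4h and at 87.6, 81.6 and 93.5 at ERKi 24h. All 6 ERKi values lay above all 9 others, as for 0.282% of the 26934 regions called in all 15 libraries. The difference was 18.8 points at 4 h and 21.5 points at 24 h, each at the smallest p that 3 against 3 libraries allow (exact permutation p = 0.1). Over all such regions, the ERKi values lay above those without ERKi in 4.89% at 4 h and in 11.3% at 24 h. By pileup the promoter ranked at 81.4 ± 2.94 at ERKi 4h against 49.95 ± 4.64 at 4h and at 91.5 ± 4.69 at ERKi 24h against 51.1 ± 5.33 at 24h (SD, n = 3), while by fold enrichment over the local background it ranked lower with ERKi, at 62.9 ± 2.80 against 78.9 ± 3.39 at 24 h (exact permutation p = 0.1 for each). The region 30162 bp upstream showed the same split, with 87.1 ± 3.17 at ERKi 24h against 73.3 ± 5.47 at 24h by -log10 p and 49.9 ± 3.72 against 60.6 ± 5.73 by fold (exact permutation p = 0.1 for both). At ERKi 4h its values by -log10 p were 81.9, 81.2 and 84.0, above 72.4, 69.97 and 80.0 at 4h. Neither region depended on ERKi 4h replicate 1, since the other two libraries also lay above the 4h values.

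**Figure D5:**
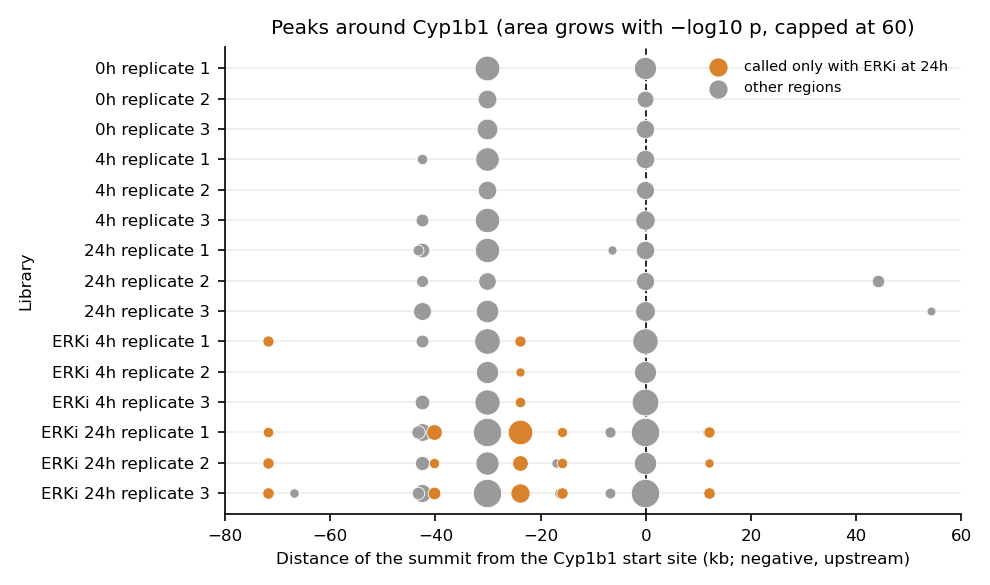
Peaks around the start site of Cyp1b1 in each of the 15 libraries, plotted by the distance of the region's summit from the start site in kb. The area of a point grows with the -log10 p, and orange points are the members. The orange points appear only in ERKi rows, the largest at -24 kb, while the grey regions at the start site and at about -30 kb are present in all 15 rows.

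Around Cyp1a1 and Cyp1a2, 2 members lay side by side 28035 and 27513 bp upstream of Cyp1a1, on the 3′ side of Cyp1a2. The second, of 464 bp at chr9:57517601-57518064, was called in 1 ERKi 4h library. In the 35000 bp on either side of Cyp1a1, 7 regions were called in any library, 5 of them in ERKi libraries alone, as were 13.5% of all regions. Of these 5, 2 are the members, by the rule, and the others were called in at most 1 library of a group. A region 9768 bp upstream was called in 3 of 3 libraries at 24h and at ERKi 24h. At 0h, 4h and ERKi 4h it was called in 1 library each. The region called in all 15 libraries lay 11059 bp beyond the start site of Cyp1a1. It ranked at 95.9 ± 1.302 at ERKi 24h and 96.0 ± 1.12 at 24h by -log10 p (SD, n = 3), and the 2 groups overlapped. A list of 9 genes of the aryl hydrocarbon receptor pathway was drawn up after these values were seen. It was nearest to 7 members (1.47%) and to 0.0921% of all regions, and all 7 lay at Cyp1b1 or Cyp1a2. No member lay nearest to Ahr, its partner Arnt, the repressor Ahrr, Tiparp, Nqo1 or Aldh3a1.

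Other genes with 3 members were Mkl2, Ghr, Atl2, Snx30, 5730494M16Rik and 2010111I01Rik. They were nearest to 25, 21, 9, 11, 16 and 46 regions of any kind, and Cyp1b1, with 5 members, to 17. Equal counts of members are therefore different shares of the regions of a gene. At Mkl2 a member of 840 bp lay 13 bp upstream of a start site, with a -log10 p of 19.8, 7.58 and 25.3 at ERKi 24h, and was called at ERKi 4h in replicate 2. A pair 331 bp apart lay 46802 and 47511 bp beyond the start site, with no call at ERKi 4h. The first of the pair counted as a promoter region. Promoters took in start sites of any annotated gene, while distances were to those of protein-coding genes. At Ghr, the growth hormone receptor, 1 member lay 775 bp upstream of a start site (8.78, 8.34 and 16.5) and was called at ERKi 4h in replicate 3, and 2 lay in introns, of which the stronger, at chr15:3414557-3415437, had 10.5, 14.2 and 24.4. At Snx30, a sorting nexin, 1 of the 3 lay 138 bp upstream of a start site. The 3 at 5730494M16Rik lay in Fhod3, a formin that nucleates actin filaments. They were 197196 to 227118 bp from the start site of the gene they were assigned to. The widest member, of 1829 bp, lay nearest Pwp2 and another of 1631 bp nearest D130058E05Rik, and each was called in 1 ERKi 4h library.

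Few members lay at genes of the pathways that TGF-β, ERK and the transition involve. The 14 lists held 653 genes, 646 of them in the annotation, and they were nearest to 25 members (5.24%), to 8.02% of all regions and to 7.42% of the regions called only at 24h. The TGF-β and BMP list was nearest to 6 members (1.26%, against 0.862% of all regions). Of these, the ones at Smad7 and Smad6, inhibitory Smads, were the weakest and are named after their values were seen. The strongest was at Tgif1, a corepressor of Smad proteins, with a region 5785 bp upstream that had a -log10 p of 25.3, 12.2 and 14.0. The next were at Pmepa1, an inhibitor of TGF-β signalling (9.91, 12.7 and 19.5), the ubiquitin ligase Smurf1 (9.75, 7.06 and 11.9) and the matrix protein Ltbp2 (8.88, 5.99 and 13.9). The ERK list was nearest to 2 members (0.419% against 0.806%), 125835 bp from Jun and 217302 bp from Myc. Receptor tyrosine kinases and their ligands had 3 members, at Pdgfc, Met and Ereg (0.629% against 0.686%). Integrins and basement membrane genes had 4, at Lama2, Col4a1, Itgav and Itga7 (0.839% against 0.471%). Growth arrest genes had 3, at Gadd45g, Ccng1 and Rb1 (0.629% against 0.591%), and epithelial regulators 2, at Gata6 and Grhl2 (0.419% against 0.450%). The list of nuclear receptors and lipid genes included Lpin2, a phosphatidate phosphatase. The list of mesenchymal genes had 1, in an intron of Zeb2 (0.210% against 0.606%), and the 24h only regions had 8 (1.75%). Sesn3 and Csf1 had 1 each, in the lists of PI3K signalling (0.210% against 0.579%) and of inflammatory genes (0.210% against 0.592%). Junction genes, Wnt, Notch and mammary differentiation had none, against 0.679%, 0.533%, 0.354% and 0.349% of all regions. The regions called only at 24h had 1, 2, 2 and 1. At backgrounds this low, having none does not set the members apart. Most of these shares lie near or below the background, and none was tested.

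The sequence within 100 bp of the summit was searched for 28 short motifs on both strands. For 25 of them the share of members with a match lay within 5 percentage points of the share over all regions. The Smad element CAGACA was found in 128 members (26.8%), in 19.5% of all regions, in 19.2% of those called only at 24h and in 17.9% of those called only at 0h. Its share was 33.1% in the 160 members called in an ERKi 4h library and 23.7% in the others. GNACANNNT, the repeated unit of glucocorticoid receptor elements, stood at 39.8% against 32.4%, and GGGCGG, the GC box of SP and KLF proteins, at 2.73% against 8.25%. In the regions called only at 24h they stood at 36.5% and 2.84%, so the low share of the GC box was no trait of the members alone. Outside promoters the shares of these 3 motifs in members and in all regions were 26.4% against 20.3%, 39.7% against 33.5% and 2.66% against 5.91%. The loose AP-1 pattern TGANTCA was found in 42 members (8.81%), against 5.87% of all regions. It stood at 5.63% in the members called at ERKi 4h and 10.4% in the others. The full Smad site GTCTAGAC was found in 1 member, and CRE, TGACGTCA, in none. GCGTG, the core bound by the aryl hydrocarbon receptor and added after the Cyp1 regions were seen, was found in 38 members (7.97%), in 13.0% of all regions, in 6.11% of those called only at 24h and in 9.78% of those called only at 0h, and in neither Cyp1 window printed above. The windows of the members had a median GC content of 47.8%, against 48.8% over all regions and 45.8% in the regions called only at 24h. Motifs of different length and base content match by base composition alone at different rates, and these shares are descriptions with no test.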

How the data were processed

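H3K27ac ChIP-seq peak lists of 15 libraries were analysed, and 10 RNA-seq and 3 input samples were not analysed here. The authors mapped the reads with Bowtie against mm9 and ran MACS2 on every library separately at its default settings. Whether an input served as control at that step is not given in the sources used here. The deposited lists give the fold enrichment over local background as a ratio and the -log10 p and -log10 q of each peak, and a score that MACS2 made from q and that was not used here. They hold no read totals, so the depth of each library is unknown and the number of peaks stands in for it.

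Peaks sharing at least 1 bp were merged and the rule was applied to the regions. The strongest summit of a region placed it in GENCODE vM1 on NCBIM37. The pileup was solved from fold and p (all but 25 of 893719 peaks within 0.005 of the deposited -log10 p). Each region was assigned to the nearest protein-coding start site. Tests over libraries were exact sign-flip and permutation tests. The named regions were the 12 with the highest mean percentile by -log10 p, the 5 strongest called in all ERKi 4h libraries (a sixth, nearest Rpl30-ps6, was named after its values were seen), the 3 widest, those of genes with 3 or more members and those of the gene lists, of which 2 regions are not reported here. The members, lists and motifs were chosen with earlier results of these data known. The merging, the rule, the pileup solution, the sign-flip p and the motif search were tested on simulated data. The annotation, ranks, gene lists and distances were not. Tables were handled in pandas 2.3.3 under Python 3.11.15, tests ran in SciPy 1.17.1 with NumPy 2.4.6, and plots were drawn with matplotlib 3.10.9. Alternative thresholds, merging, ranks and left-out libraries are given in the closing section.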

Additional observations from a re-analysis of the deposited data

How the results depend on the processing

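The number of members depended on the peak threshold. It was 189 with peaks of -log10 q of at least 10, 141 with the 20000 highest peaks of each list and 182 with a fold of at least 5, each with the rule applied again. It was between 351 and 477 with peaks within 1000 bp merged, with 500 bp summit windows, with calls only where a peak covered 0.5 of the region, or with chromosomes 1 to 19 and X alone. Leaving out a library gave 583 to 2165 regions for the ERKi 24h libraries and 487 to 607 for the 9 others, and the 2165 came without ERKi 24h replicate 2, the shortest list of its group. The mean share of members called at ERKi 4h was 7.99% to 14.2% without an ERKi 24h library, an alternative added after seeing the data. The differences of that share from the regions called only at 24h and only at 4h kept their direction in all 7 alternatives run, though the 4h only set then held as few as 2 regions. That from the regions called only at 0h turned to 0.944 points with -log10 q of at least 10 and was -3.51 points where a peak had to cover 0.5 of the region. With promoters of 2500 bp on either side, promoters held 16.6% of the members, against 26.2% of all regions, and introns held 44.2% of the members. Within 50 kb of a start site of any annotated gene lay 82.8% of the members, against 76.7% for protein-coding genes. The median percentile was 39.5 by fold.

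Both shares in a difference come from the same ERKi 4h library, so the library itself was the block. With no replicate block, an exact permutation test of 3 shares against 3 gave p = 0.1, 0.1 and 0.2 for differences of 13.9, -39.7 and -9.36 points from the regions called only at 24h, 4h and 0h. For the ranks of regions called in all 15 libraries, a replicate block gave exact sign-flip p-values of 0.25 at the lowest, the smallest possible, and changed no call. The labels do not say that a replicate number marks a shared day or culture. Ranked by fold, the differences turned to -3.01 for the neighbours of members, to -3.36 at 4 h and -16.0 at 24 h for the Cyp1b1 promoter, to -6.39 and -10.8 for the region 30162 bp upstream, and to 0.0355 for the region beyond Cyp1a1 at 24 h. That last difference was 0.361 by pileup and -0.797 to 1.29 with 1 replicate left out, against -0.0379. The cause was not tested. These rank comparisons were added after seeing the data. Of 28 motifs, 27 moved by less than the counting error of the share in windows of 50 bp on either side and outside promoters.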
